A study of Mus musculus with 4 samples.

Results

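Peaks of open chromatin were described at the 4 nuclear factor I (NFI) genes of the mouse, *Nfia*, *Nfib*, *Nfic* and *Nfix*. A peak belonged to a gene when it overlapped the gene body or the 50 kb on either side of it in the GENCODE vM21 annotation. The rule uses no measured value, but the genes were chosen with earlier results of these data known. Of the 64360 peaks in the 4 deposited lists, 136 met this rule. The control female list held 47 of them among its 21176 peaks, the VEDS male list 89 among 41444, and the control male list (1236 peaks) and the VEDS female list (504 peaks) held 0. ATAC-seq marks accessible DNA with the transposase Tn5, and it was applied to nuclei from untreated aortas of mice at 60 days of age on a C57BL/6J background. Control mice were Col3a1+/+. VEDS mice, a model of vascular Ehlers-Danlos syndrome, were Col3a1G938D/+, with 1 copy of the type III collagen gene carrying a glycine substitution. Each genotype had 1 library from females and 1 from males, each of pooled tissue from 2 animals, so that genotype, sex and list length cannot be told apart at single genes.

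NFI factors bind DNA as dimers, and the 4 paralogs can form homodimers and heterodimers with each other. The full site is a palindrome of TTGGC and GCCAA with 5 free bases between them, and single arms are bound more weakly. NFI factors are known for their part in the differentiation of glia, muscle stem cells, adipocytes and epithelia, and for work beside steroid hormone receptors at enhancers. Each gene makes several transcripts from alternative first exons, which give proteins that differ at the N terminus.

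The lists were called separately for each library, and their depth differed. Summits held a median of 14 fragments in the control female list and 22 in the VEDS male list, but 7 in the control male list and 6 in the VEDS female list. These numbers were worked out from 2 deposited values of each peak. With 2 libraries against 2, the smallest p of a two-sided exact permutation test is 0.333, and no test between genotypes was made. All 4 smooth muscle genes listed (*Myh11*, *Acta2*, *Tagln*, *Cnn1*) had a promoter peak in both long lists. Of the other cell type markers, *Pdgfra* alone had one in the control female list, and *Pdgfra*, *Tie1*, *Ckm*, *Gfap* and *Snap25* had one in the VEDS male list. The lists do not separate cell types, so that a peak in few nuclei and a weak peak in many cannot be told apart. A region without a peak was not taken as closed.

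The 4 genes had 18 annotated promoters, with starts within 500 bp of each other counted as 1 promoter. *Nfia* (chr4:97772734-98118874, plus strand, 346 kb) had 4, *Nfib* (chr4:82290173-82705750, minus strand, 416 kb) had 3, *Nfic* (chr10:81396186-81455635, minus strand, 59.5 kb) had 5 and *Nfix* (chr8:84699876-84800344, minus strand, 100 kb) had 6. All positions are on GRCm38, the build also called mm10. The main promoter of a gene is here the one with the most protein-coding transcripts. It starts 5 transcripts of *Nfia*, 10 of *Nfib* (6 of them coding), 3 of *Nfic* and 3 of *Nfix*.

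Of the 4 main promoters, that of *Nfib* alone had a peak within 1 kb, and it had one in both long lists. The main promoters of *Nfia*, *Nfic* and *Nfix* had none in any of the 4 lists. Over all 21938 protein-coding genes, 41.6% had a peak within 1 kb of the main promoter in the control female list and 51.7% in the VEDS male list. The same share was 1.21% in the control male list and 1.24% in the VEDS female list.

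The *Nfix* main promoter was the richest in CpG. Its 1000 bp held 180 CpG dinucleotides and 80.5% G and C, and only 1 of the 21938 coding genes held more CpG. The nearest peak lay 9706 bp away in the control female list and 9689 bp away in the VEDS male list. At the *Nfia* main promoter, with 112 CpG, these distances were 2358 bp and 2304 bp. At the *Nfic* main promoter, with 51 CpG, they were 5788 bp and 2062 bp. The *Nfib* main promoter held 73 CpG, fewer than *Nfia* and *Nfix*, and a peak reached its first start in both lists.

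Among all coding genes the share with a peak rose with CpG content and then changed little, with wide intervals in the highest class. It was 4.54% in the control female list and 8.54% in the VEDS male list below 25 CpG, and 70.7% and 83.9% from 50 to below 75 CpG, the class of *Nfib* and *Nfic*. In the class that starts at 100 CpG, that of *Nfia*, it was 73.0% and 87.3%. Of the 74 genes with 150 CpG or more, the class of *Nfix*, 63.5% had a peak in the control female list (95% Wilson interval 52.1 to 73.6) and 81.1% in the VEDS male list (70.7 to 88.4). Over all 1867 genes with 100 CpG or more, the shares were 73.0% and 86.9%. *Nfia* and *Nfix* were therefore among the minority of CpG-rich main promoters without a peak in either list. Intervals here and below cover counting error only.

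**Figure D1:**
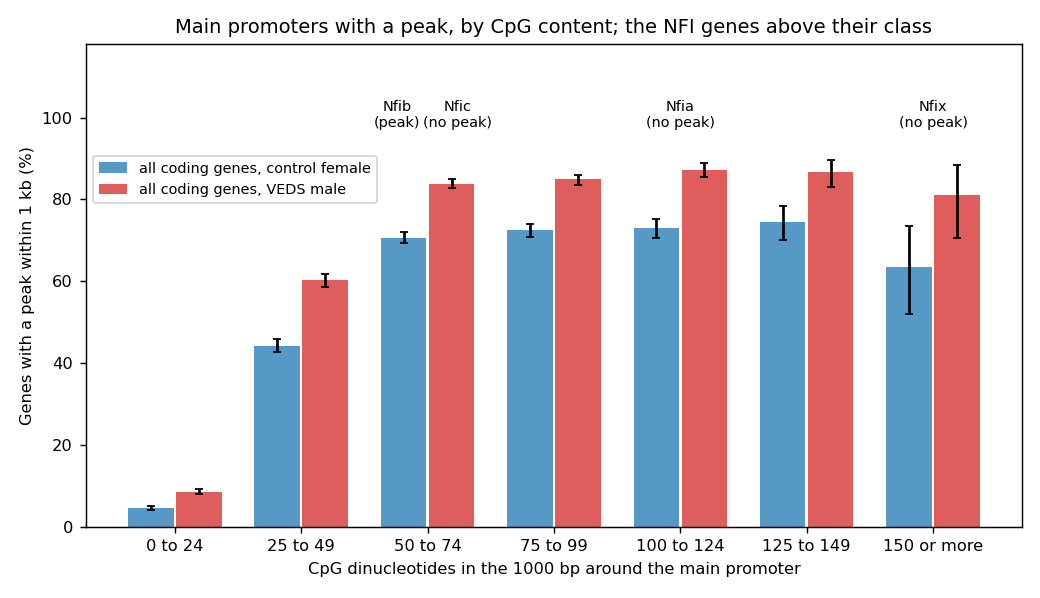
Share of all protein-coding genes with a peak within 1 kb of the main promoter (y axis, %, bars with 95% Wilson intervals), by the number of CpG in the 1000 bp around it (x axis), for the control female list (blue) and the VEDS male list (red). The NFI genes stand above their class with whether they had a peak, which was the same in both lists: *Nfic*, *Nfia* and *Nfix* had none, although over 60% of the genes in each of their classes had one.

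To show what promoter stretches without a peak look like, bases directly before the starts are printed from the RefSeq copy of GRCm38.p6, on the plus strand as are all sequences here. Capitals mark GC boxes (GGGCGG or its complement CCGCCC, the site of SP and KLF factors). The GC boxes of *Nfia* beyond the 157 bases printed are not shown. The stretches of *Nfia* and *Nfic* lie at chr4:97777424-97777580 and chr10:81427188-81427437, outside annotated exons of the NFI genes, and the *Nfib* bases at chr4:82505873-82505902, inside its peak, are shown beside them.
Nfia main promoter: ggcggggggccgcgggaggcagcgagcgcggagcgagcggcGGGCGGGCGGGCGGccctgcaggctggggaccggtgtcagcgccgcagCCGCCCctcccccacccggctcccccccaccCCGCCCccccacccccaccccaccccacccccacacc
Nfic main promoter: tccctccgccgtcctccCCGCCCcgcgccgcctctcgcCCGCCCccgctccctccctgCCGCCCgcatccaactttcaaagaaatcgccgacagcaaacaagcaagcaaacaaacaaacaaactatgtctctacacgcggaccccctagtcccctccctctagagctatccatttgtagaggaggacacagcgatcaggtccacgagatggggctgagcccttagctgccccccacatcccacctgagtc
Nfib main promoter: tctccacaccccCCGCCCcccaccttcctc

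In the 250 bp upstream of the main promoter, *Nfia* had 8 GC boxes, *Nfix* 7, *Nfic* 3 and *Nfib* 1. Over all coding genes, 0.232% had 8 or more, 0.574% had 7 or more, 10.7% had 3 or more and 39.8% had at least 1. The single GC box in these 250 bp of *Nfib* thus stood under a peak, and those of *Nfia* and *Nfix* did not. The *Nfib* peak reaches farther upstream than these 250 bp. In the VEDS male list, the 300 bp around its summit held 3 other GC boxes. Another gene, *E130114P18Rik*, starts 214 bp from the *Nfia* main promoter on the opposite strand, and its start had no peak either.

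Of the genes without a main-promoter peak, *Nfia* and *Nfix* had a peak at an alternative start. Counting all 18 promoters, 4 had a peak within 1 kb in the control female list and 5 in the VEDS male list. These shares were close to those of the 52546 annotated promoters of coding genes, 22.2% and 29.5%. The promoters with a peak in both lists included the upstream start of *Nfia* at chr4:97772734 and the *Nfib* main promoter. The others were the intronic start of *Nfib* at chr4:82499316 and an internal start of *Nfix* at chr8:84774369. The VEDS male list added the internal *Nfix* start at chr8:84773396, through a single peak of which 55.3% of the bases are repeat-masked. Without mostly masked peaks the VEDS male number was 4. *Nfia*, *Nfib* and *Nfix* thus had a promoter peak in both lists and *Nfic* in neither, where 44.9% (control female) and 55.5% (VEDS male) of all coding genes had one at any start.

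The upstream start of *Nfia* makes 1 coding transcript. It had a peak on either side in both lists. The higher one, in an intron of that transcript, was at chr4:97773210-97773440 in the control female list (27 fragments at the summit, fold enrichment 8.02, rank 4710) and at chr4:97773236-97773496 in the VEDS male list (58 fragments, 8.86, rank 6163). It ranked in the top 22.2% and 14.9% of the lists and was the highest promoter peak of any NFI gene in both. The upstream one, at chr4:97772176-97772497, had 22 fragments and rank 7655 in the control female list, and 48 fragments and rank 9019 in the VEDS male list.

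Another peak, at chr4:97775126-97775250 (22 fragments) and chr4:97775136-97775304 (41 fragments), lay between this start and the main promoter. These peaks lie in a span that a gene on the other strand, *E130114P18Rik*, also covers, so that they cannot be assigned to *Nfia* alone.

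The *Nfib* main promoter carried the widest NFI peaks. They covered 815 bp in the control female list (chr4:82505776-82506590) and 870 bp in the VEDS male list (chr4:82505751-82506620), wider than 98.5% and 97.3% of the peaks of those lists. Their height was moderate, with 16 fragments (fold enrichment 5.69, rank 12531) and 38 fragments (5.61, rank 15992). At the intronic start of *Nfib*, which makes a noncoding transcript from intron 1 of the main transcript, the peaks were narrow and low in the control female list (136 bp, 7 fragments, rank 19020) and nearer the middle of the VEDS male list (205 bp, 21 fragments, rank 19834). RefSeq also places this stretch in an exon of predicted *Nfib* mRNAs, and its sequence is not printed.

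The internal *Nfix* start at chr8:84774369, in intron 1 of the main transcript, makes 1 coding transcript. Its control female peak at chr8:84774470-84774805 had 17 fragments, a fold enrichment of 6.75 and rank 9821. The VEDS male list had 3 peaks here, at chr8:84773941-84774119 (33 fragments, rank 18774, with its summit in an annotated untranslated region), chr8:84774467-84774880 (24 fragments, rank 27219) and chr8:84775205-84775433 (25 fragments, rank 25706). The middle one overlapped the control female peak. The start at chr8:84773396 is within 1 kb of the first of them alone.

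The 4 annotated first exons of *Nfic* away from its main promoter had no peak within 1 kb either. The nearest were 1040 bp from the start at chr10:81400554 and 1287 bp from that at chr10:81407641 in the VEDS male list, and 1256 bp from the former in the control female list. The start at chr10:81431005, whose 1000 bp held 105 CpG, was 1970 bp and 1968 bp from its nearest peak.

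What is called the main promoter depends on the annotation. The RefSeq transcripts on GRCm38.p6 give 17 promoters, of which 4 had a peak within 1 kb in the control female list and 6 in the VEDS male list. For *Nfix*, RefSeq places 12 transcripts at chr8:84772875-84773410, 1060 bp from a control female peak and 531 bp from a VEDS male peak. It places 3 transcripts at the CpG-rich start. With the start of most RefSeq transcripts taken as the main one, *Nfix* would also have a main-promoter peak, in the VEDS male list alone. RefSeq also starts 2 *Nfia* transcripts at chr4:97578066, far upstream, with the nearest peak 13034 bp away in the VEDS male list and 173046 bp away in the control female list. For *Nfic*, RefSeq starts 2 transcripts at chr10:81431919, just past 1 kb from the highest peak inside *Nfic*, described below. The distance was 1056 bp in the control female list and 1054 bp in the VEDS male list.

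Peaks at 2 of the alternative starts are printed because these starts had a peak and the CpG-rich main starts of the same genes did not. Capitals mark matches of the motifs searched, 1 GC box in *Nfia* and 2 NFI single arms (TTGGCA) in *Nfix*. The positions are chr4:97773236-97773496 for *Nfia* and chr8:84774470-84774769 for *Nfix*.
Nfia upstream promoter peak: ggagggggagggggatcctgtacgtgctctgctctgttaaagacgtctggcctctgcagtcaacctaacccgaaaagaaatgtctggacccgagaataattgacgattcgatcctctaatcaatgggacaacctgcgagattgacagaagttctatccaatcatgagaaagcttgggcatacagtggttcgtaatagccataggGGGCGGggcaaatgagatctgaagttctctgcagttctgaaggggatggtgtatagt
Nfix internal promoter peak: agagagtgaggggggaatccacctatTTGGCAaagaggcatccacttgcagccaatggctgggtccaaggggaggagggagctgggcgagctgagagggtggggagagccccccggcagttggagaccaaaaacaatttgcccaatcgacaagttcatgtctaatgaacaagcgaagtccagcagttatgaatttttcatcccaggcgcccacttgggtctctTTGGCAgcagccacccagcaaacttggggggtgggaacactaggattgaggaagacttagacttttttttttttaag

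Both held fewer CpG than the stretch printed from the *Nfia* main promoter, which holds 18 in 157 bases. There were 9 CpG in the 261 bases of *Nfia* and 5 in the 300 bases of *Nfix*.

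Most NFI peaks lay in introns. Of the 47 control female peaks, 24 were intronic, 5 were at an NFI promoter, 13 were within 1 kb of a start of another gene and 5 were elsewhere outside the genes. Of the 89 VEDS male peaks these numbers were 53, 7, 17 and 10, and 2 lay in exons of noncoding *Nfib* transcripts. No summit lay in a coding exon. The rule takes in the whole gene bodies, and these classes were not counted over all peaks. The intronic share therefore cannot be called particular to the NFI genes.

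**Figure D2:**
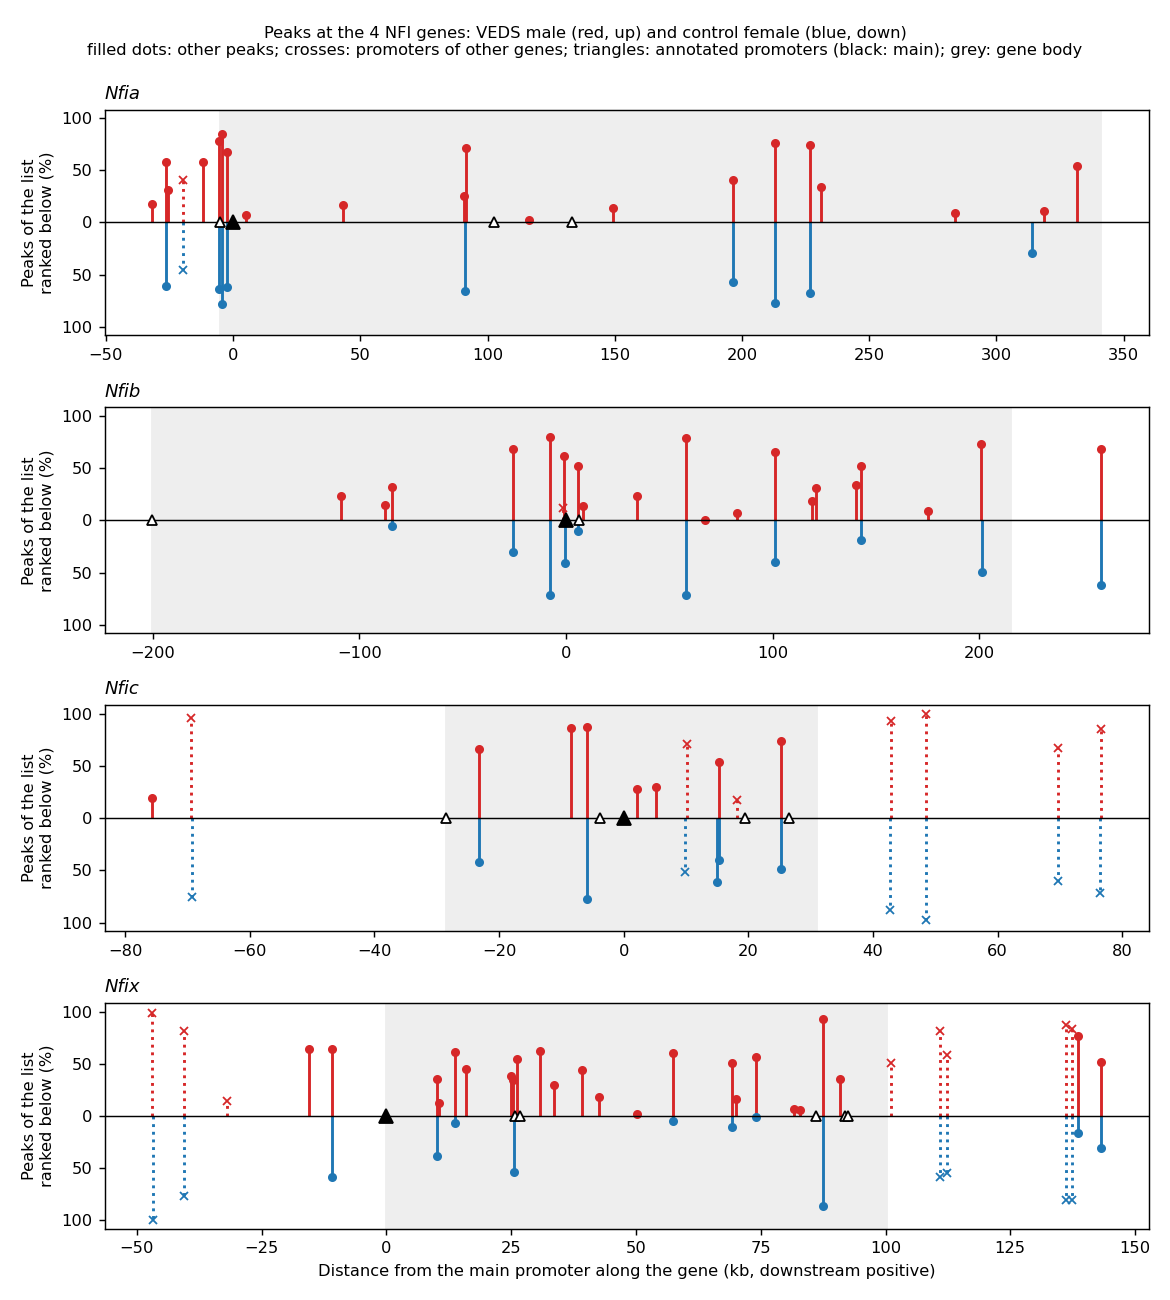
Peaks at each NFI gene by distance from the main promoter along the gene (x axis, kb). Height is the share of the list ranked below the peak (y axis, %), upward for the VEDS male list (red) and downward for the control female list (blue), with dots for NFI and intergenic peaks, crosses for promoters of other genes, triangles for annotated promoters (black for the main one) and grey for the gene body. *Nfib* alone has a peak at the black triangle, and in *Nfix* and *Nfic* the highest marks are crosses.

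By number, *Nfix* had 16 peaks in the control female list and 32 in the VEDS male list, *Nfia* 10 and 21, *Nfib* 10 and 21, and *Nfic* 11 and 15. Per 100 kb of region, *Nfix* had 7.98 and 16.0 peaks, more than 98.9% and 99.9% of coding genes. *Nfic* had 6.90 and 9.41, more than 97.7% and 95.6% of coding genes. The long genes *Nfia* (2.24 and 4.71) and *Nfib* (1.94 and 4.07) were nearer the medians over coding genes, 1.41 and 2.59. The region counts of *Nfic* and *Nfix* include promoters of close neighbours, and inside the gene body alone *Nfix* had 7 and 20 peaks, *Nfib* 9 and 20, *Nfia* 7 and 15, and *Nfic* 6 and 9.

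The highest peaks of the *Nfic* and *Nfix* regions belonged to other genes. In the *Nfix* region the first was at the start of *Calr*, the gene of the chaperone calreticulin, and *1700122E12Rik* (rank 67 in the control female list, rank 455 in the VEDS male list). In the *Nfic* region it was at the start of *Fzr1*, an activator of the anaphase-promoting complex (ranks 485 and 196). These neighbours had 61 and 100 fragments (*Calr*) and 44 and 116 fragments (*Fzr1*) at the summit in the control female and VEDS male lists.

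Among the peaks away from any start, the highest of *Nfix* was in its last intron, intron 9 of the main transcript, 87.5 kb from the main promoter. It covered 727 bp in the control female list (chr8:84712208-84712934, 34 fragments, rank 2867) and 768 bp in the VEDS male list (chr8:84712216-84712983, 86 fragments, rank 3033). It was the highest NFI peak outside promoters of other genes in both lists. The next of *Nfix* were 10.9 kb upstream of the main promoter (ranks 8840 and 14821), in intron 1 (rank 12991 in the control female list) and in *Ier2* beyond the 3' end (rank 9828 in the VEDS male list).

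The highest peaks of *Nfia* away from starts were the same 3 in both lists. With control female coordinates, they lay in intron 3 of the main transcript at chr4:97990475-97990927 (20 and 34 fragments), in intron 4 at chr4:98004264-98004727 (18 and 39 fragments) and in intron 2 at chr4:97868851-97869156 (17 and 33 fragments), between 91.3 and 227 kb into the gene. Their ranks were 4899, 6862 and 7330 in the control female list, and 10047, 10570 and 12090 in the VEDS male list.

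The highest of *Nfib* were upstream of the main promoter at chr4:82513150-82513418 (20 and 44 fragments, ranks 5936 and 8396) and in intron 2 of the main transcript at chr4:82447304-82447585 (18 and 36 fragments, ranks 5971 and 8639). The third was beyond the 3' end in the control female list (rank 8015) and in intron 10 in the VEDS male list (rank 11316). The upstream one held 5 GC boxes and 1 CTCF core in its summit window.

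In *Nfic* the highest was 5.9 kb upstream of the main promoter, in an intron of a longer transcript that starts at chr10:81455635. It was at chr10:81432975-81433196 in the control female list (29 fragments, rank 4741) and at chr10:81432973-81433183 in the VEDS male list (68 fragments, rank 5288). The next in the control female list were in intron 2 of the main transcript (26 fragments, rank 8181) and in intron 8 (17 fragments, rank 10924), and the intron 8 peak had 44 fragments and rank 10654 in the VEDS male list. The highest is printed because *Nfic* had no peak within 1 kb of its own starts. It has no capitals because it matched none of the motifs searched, among which the NFI single arm is TTGGCA. It does hold the shorter TTGGC, which was not searched alone and is not marked in any sequence here.
Nfic highest peak: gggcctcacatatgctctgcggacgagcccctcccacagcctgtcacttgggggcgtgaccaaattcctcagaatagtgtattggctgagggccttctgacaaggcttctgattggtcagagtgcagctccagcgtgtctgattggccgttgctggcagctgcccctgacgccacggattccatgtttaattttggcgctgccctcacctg

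Nearly all control female peaks recurred in the longer list. Of the 47, 46 overlapped a VEDS male peak by at least 1 bp (97.9%, interval 88.9 to 99.6), and 95% of all control female peaks did. In the other direction 45 of the 89 VEDS male peaks overlapped a control female peak (50.6%, 40.4 to 60.7), against 47.6% of the whole list. The VEDS male peaks with an overlap had a median of 37 fragments and those without one a median of 17. By gene it was 10 of 15 for *Nfic*, 16 of 32 for *Nfix*, 10 of 21 for *Nfib* and 9 of 21 for *Nfia*. Both overlaps were close to those of the whole lists.

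With the VEDS male list held to its 21176 highest peaks, as many as the control female list has, the numbers were close in every gene. *Nfia* had 10 control female and 9 VEDS male peaks, *Nfib* 10 and 9, *Nfic* 11 and 11, and *Nfix* 16 and 18. The larger number of VEDS male peaks at the full length was thus made of peaks in the lower ranks of that list.

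The exception in height was in *Nfic*. The VEDS male peak at chr10:81435496-81435731, 8.48 kb upstream of the main promoter in an intron of the same longer transcript, had 61 fragments, a fold enrichment of 9.07 and rank 5542, and no control female peak within 2300 bp. Of the VEDS male peaks of this rank or higher, 42 (0.758%) had no overlap in the control female list. This peak was singled out after its values were seen. The next VEDS male peaks without an overlap were in the *Nfix* region, at rank 14917 in *Dand5* and at rank 15747 in intron 2. The 1 control female peak without an overlap was in intron 10 of *Nfia* (9 fragments, rank 14998), at chr4:98091699-98091824. Both of these peaks are printed, with an NFI single arm in capitals in each and in *Nfia* also a hormone receptor element, an inverted repeat that steroid receptors bind.
Nfic VEDS male peak: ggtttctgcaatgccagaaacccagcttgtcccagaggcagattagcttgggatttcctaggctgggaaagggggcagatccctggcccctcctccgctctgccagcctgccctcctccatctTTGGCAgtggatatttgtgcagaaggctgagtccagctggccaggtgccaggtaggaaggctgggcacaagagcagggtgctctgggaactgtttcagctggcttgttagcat
Nfia control female peak: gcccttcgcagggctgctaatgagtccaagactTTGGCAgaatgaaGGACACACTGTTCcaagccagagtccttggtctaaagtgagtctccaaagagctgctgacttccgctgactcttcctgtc

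The shared peaks were also compared by their order, a comparison chosen after the data were seen. Among the 20126 control female peaks with an overlap, each was given its rank among them in both lists, as a percent with 0 the highest. At the NFI genes 33 of 46 shared peaks stood nearer the top in the control female list, against 51.3% of all shared peaks. The median rank was 43.9% in the control female list and 61.9% in the VEDS male list.

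In *Nfia* all 9 shared peaks were nearer the top in the control female list. The differences, control female minus VEDS male, ranged from -43.5 to -6.74 percentage points, with the largest at the intron 3 peak chr4:97974163-97974348 (45.5% against 89.0%) and the smallest at the peak before the upstream start (38.0% against 44.8%). The count was 6 of 10 for *Nfib*, 8 of 11 for *Nfic*, where 2 control female peaks met the same VEDS male peak, and 10 of 16 for *Nfix*. Without promoters of other genes it was 8 of 8 for *Nfia*, 6 of 10 for *Nfib*, 4 of 5 for *Nfic* and 5 of 10 for *Nfix*, and the median difference of *Nfix* turned from -4.06 to 4.15 percentage points. In *Nfix* the directions were mixed, from the internal promoter peak (48.7% against 92.3%) to the *Ier2* peak at chr8:84661618-84661774 (86.2% against 48.3%). Peaks of a gene come from the same 2 libraries and are not replicates, so that no test was made and genotype, sex and library cannot be told apart here.

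**Figure D3:**
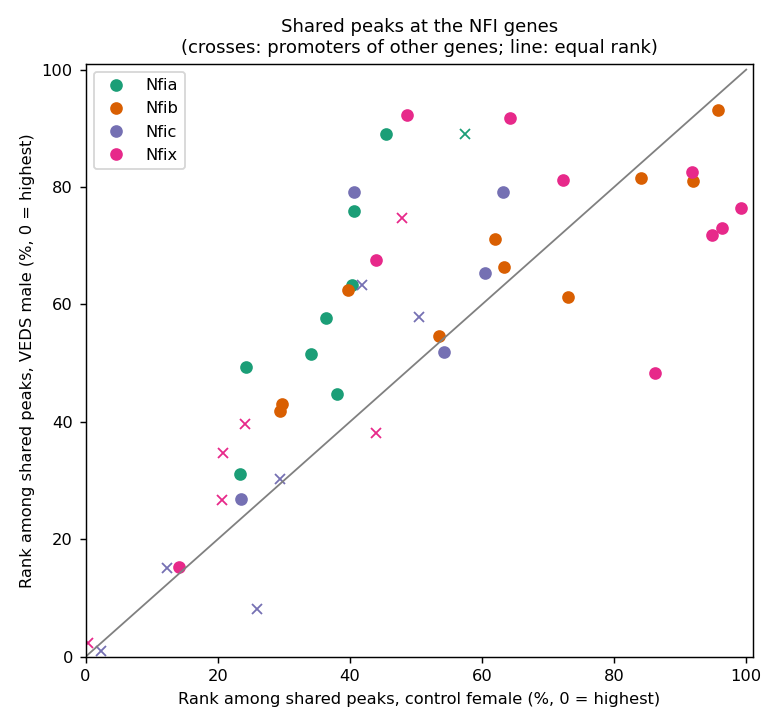
Rank of each shared peak among all shared peaks in the control female list (x axis, %) and in the VEDS male list (y axis, %), with 0 the highest, for the 4 NFI genes in colours, crosses for promoters of other genes and a line of equal rank. All 9 *Nfia* points lie above the line, nearer the top in the control female list, and the *Nfix* points lie on both sides.

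The local background that the peak caller set against each summit differed between the genes. For peaks at NFI promoters and in the gene bodies, its median in the VEDS male list was 5.62 fragments in *Nfix* and 6.50 in *Nfic*, against 2.13 in *Nfia*, 2.02 in *Nfib* and 2.29 over all peaks of the list. In the control female list it was 2.19 in *Nfix*, 3.0 in *Nfic*, 1.20 in *Nfia*, 1.02 in *Nfib* and 1.03 over all peaks. All 20 *Nfix* peaks of the VEDS male list and all 7 of the control female list were above the median of their list.

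*Nfix* summits held 26.5 fragments at the median in the VEDS male list, above the 22 of all peaks, but their median fold enrichment was 4.40, below the 6.56 of all peaks. In the control female list the *Nfix* medians were 12 fragments and 4.16, against 14 and 7.02 over all peaks. *Nfic* had 44 fragments and a fold enrichment of 7.40 in the VEDS male list, and 20 and 6.19 in the control female list. The part of the local background in the absence of a peak at the main promoters was not tested.

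**Figure D4:**
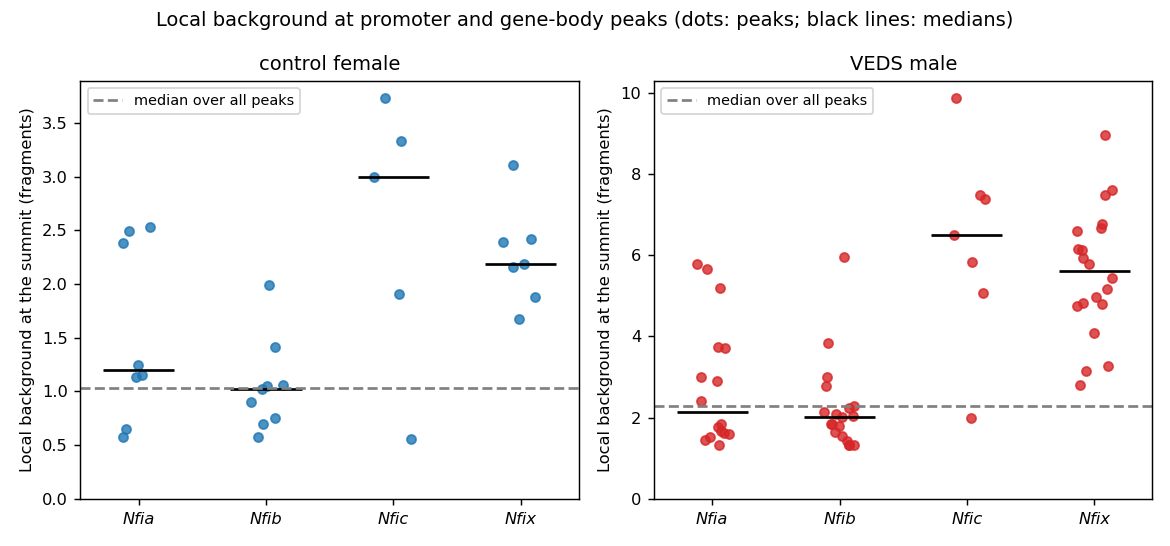
Local background at the summit (y axis, fragments) of each peak at the promoters and in the bodies of the NFI genes (x axis), for the control female list (left) and the VEDS male list (right), with black lines for medians and a dashed line for the median over all peaks of the list. Every *Nfix* peak is above the dashed line in both lists, and most *Nfib* peaks are at or below it.

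Motifs were searched on both strands in the 300 bp around each summit on the chromosomes, which gave 21128 control female and 41365 VEDS male windows. The NFI palindrome was found in 0 of the 47 control female and 0 of the 89 VEDS male windows, which allows shares of up to 7.56% and 4.14% by the Wilson interval. It was rare throughout, in 0.0521% and 0.0556% of all windows. In windows of 500 bp, and also over the whole peak, it was in 1.12% of the VEDS male peaks at the NFI genes. The control female share stayed at 0 in both settings. The NFI single arm TTGGCA, which is the first arm of the palindrome and an A, was found in 16 control female windows (34.0%, 22.2 to 48.3), against 21.7% of all windows of that list. In the VEDS male list it was in 27 windows (30.3%, 21.8 to 40.5), against 23.5%. By gene, these windows were 4 and 6 in *Nfia*, 5 and 6 in *Nfib*, 3 and 4 in *Nfic* and 4 and 11 in *Nfix*. Away from all starts, the share was 44.8% (28.4 to 62.5) against 31.1% in the control female list, and 32.3% (22.2 to 44.4) against 29.4% in the VEDS male list. The intervals at the NFI genes held the share of the whole list in 3 of these 4 comparisons and lay just above it in the first.

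One *Nfib* peak, singled out after its values were seen, held more single arms than any other NFI peak. At chr4:82404224-82404524 in the control female list (12 fragments, rank 12813), in intron 2 of the main transcript, the window held 5 single arms in 195 bp, the last 4 of them in 81 bp. Of all 21128 control female windows, 7 (0.0331%) held 5 or more. The VEDS male window (29 fragments, rank 14447) reached 4 of the same sites, as 30 windows (0.0725%) of that list did or more. The stretch chr4:82404309-82404513 is printed with the single arms, TTGGCA or its complement TGCCAA, in capitals.
Nfib single-arm cluster: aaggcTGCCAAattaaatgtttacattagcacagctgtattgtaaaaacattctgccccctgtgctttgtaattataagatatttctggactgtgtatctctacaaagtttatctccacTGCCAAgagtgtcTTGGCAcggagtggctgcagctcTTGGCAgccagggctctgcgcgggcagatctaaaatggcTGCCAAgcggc

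Sites of factors active in smooth muscle and in stress responses were counted in the same windows. AP-1 sites (TGACTCA or TGAGTCA, bound by JUN and FOS dimers) were in 2 control female windows (4.26%, 1.17 to 14.2), against 11.6% of all windows. In the VEDS male list they were in 4 windows (4.49%, 1.76 to 11), against 11.6%. All NFI genes but *Nfia* had an AP-1 window in the VEDS male list. The only one of the *Nfix* region had its summit in *Ier2*, beyond the 3' end of *Nfix*. Away from starts the AP-1 share was 6.90% (1.91 to 22.0) against 18.5% in the control female list, where the interval held the share of the whole list, and 6.15% (2.42 to 14.8) against 15.4% in the VEDS male list, where it did not.

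MEF2 sites were in 2.13% of the control female windows and 3.37% of the VEDS male windows, against 5.55% and 5.79% of all. CArG boxes, bound by SRF, were in 2.13% and 3.37%, against 3.02% and 3.09%. TEAD sites (ACATTCC), read by the partners of YAP and TAZ, were in 4.26% and 3.37%, against 6.13% and 6.21%. CRE sites (TGACGTCA) were in 2.13% and 2.25%, against 2.59% and 1.77%.

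CTCF cores were in 12.8% and 15.7% of the NFI windows, against 12.4% and 13.6%, and 9 of the 14 VEDS male windows with one were in the *Nfix* region. GC boxes were in 42.6% and 25.8%, against 40.0% and 29.7%. ETS sites (CCGGAAG) were in 6.38% and 3.37%, against 10.3% and 7.28%, and all were at promoters of other genes. The hormone receptor element was in 1 window of each list (2.13% and 1.12%, against 1.24% and 1.10%), both in *Nfia* introns but at different places. Except for AP-1 in the VEDS male list, the interval of each of these motifs at the NFI genes held the share of the whole list.

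**Figure D5:**
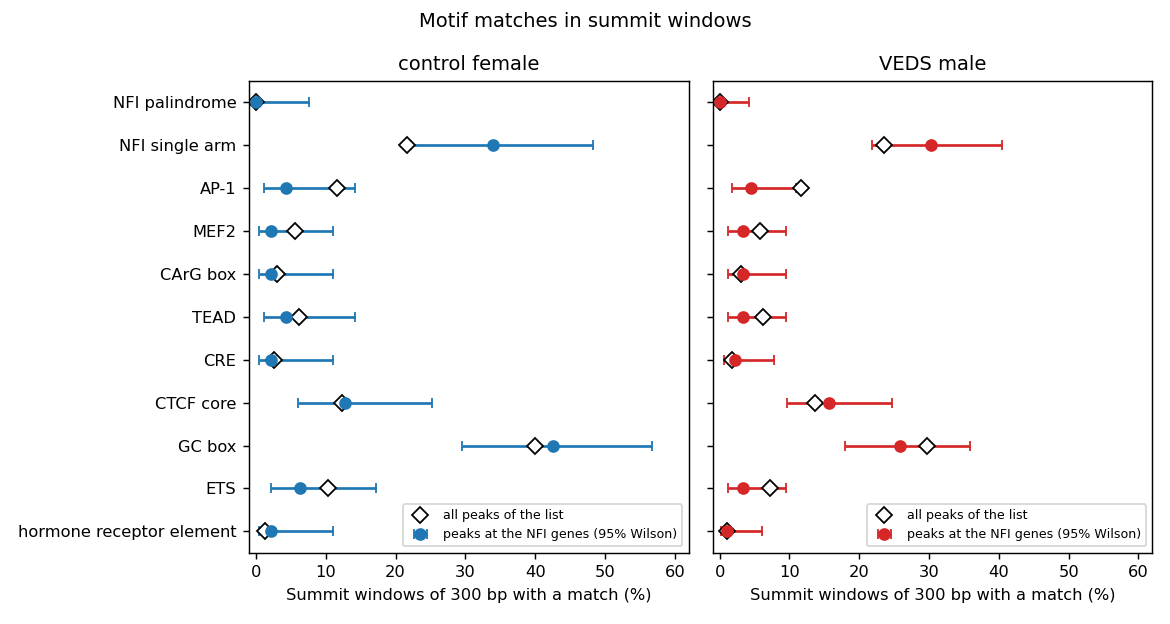
Share of 300-bp summit windows with a match (x axis, %) for the 11 motifs (y axis), at the NFI genes (dots with 95% Wilson intervals) and over all peaks of the list (diamonds), for the control female list (left) and the VEDS male list (right). The NFI single arm lies to the right of its diamond and AP-1 to the left in both lists, with intervals that reach the diamond or nearly so. The lists are not independent, since 16 of the 39 single-arm sites and 2 of the 4 AP-1 sites were counted in both.

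In the summit windows of 2 NFI peaks, also chosen after their values were seen, such sites occurred together. In intron 3 of the *Nfib* main transcript, a peak of both lists (chr4:82362702-82362881, 9 fragments, rank 17216, and chr4:82362555-82362744, 21 fragments, rank 20043) held an AP-1 site and a MEF2 site with 5 bases between them. In intron 2 of the *Nfix* main transcript, a VEDS male peak with no control female overlap (chr8:84760955-84761160, 22 fragments, rank 23392) had a CArG box, a full CRE and a MEF2 site in 1 window. The *Nfix* MEF2 site and the first base of the CArG box lay in the window but outside the peak. Both stretches are printed with these sites in capitals in the order given here, at chr4:82362711-82362752 and chr8:84760949-84761181.
Nfib AP-1 and MEF2 stretch: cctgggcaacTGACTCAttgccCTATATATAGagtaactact
Nfix CArG, CRE and MEF2 window: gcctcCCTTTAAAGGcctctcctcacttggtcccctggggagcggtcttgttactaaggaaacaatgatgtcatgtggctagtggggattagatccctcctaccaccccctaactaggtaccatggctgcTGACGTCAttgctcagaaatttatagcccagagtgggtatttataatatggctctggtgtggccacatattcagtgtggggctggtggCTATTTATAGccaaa

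Genes that NFI factors regulate in other tissues were also looked up. Of 12 such genes, 6 had a promoter peak in the control female list (*Hes1*, *Ezh2*, *Sox9*, *Col1a2*, *Fabp4* and *Nfatc4*). In the VEDS male list 9 of the 12 had one (these and *Gfap*, *Pparg* and *Ckm*). Over all coding genes the shares were 44.9% and 55.5%, as given above. The best ranked was *Ezh2*, a histone methyltransferase gene (ranks 4540 and 1855). Their promoter peaks held no NFI palindrome, and a single arm in *Sox9* in both lists and in *Ezh2* and *Col1a2* in the control female list. *Fabp7* and *Ucp1* had no promoter peak in any list.

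By the number of peaks in the gene body or within 1 kb of a start in the 4 lists, the genes most like each member were found by the Euclidean distance of log2(number + 1), with ties decided by gene length. *Nfia*, with 8 control female and 16 VEDS male peaks, was matched exactly by *Sipa1l3*, *Cx3cr1* and *Dlgap1*. *Nfib* (9 and 20) was nearest to *Dab2ip*, *Slc24a3* and *Itpr1*, at distances of 0, 0.0671 and 0.131. *Nfic* (6 and 9) was matched by *St3gal2*, *Nuak1* and *Htra1* among 12 genes at distance 0. *Nfix* (7 and 20) was matched by *Mcph1*, *Maml2* and *Frmd4a*.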

How the data were processed

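The authors made the files from nuclei of aortic tissue with a single-cell ATAC kit, aligned reads to mm10 (GRCm38) and called narrow peaks with MACS2 for each library on its own, with duplicates removed by barcode, Tn5 cut sites corrected and blacklisted regions excluded. The deposited score is −log10 q times 10 without decimals. The deposited fold enrichment is a ratio of the summit to the background around it in that library. The deposited −log10 p and −log10 q (p-value and q-value) were used to rank peaks within a list, and no value was compared between lists as a level. The aligner is not given in the sources used here. The members and lists of genes and motifs were chosen with earlier results of these data known.

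No peak ran past a chromosome end of GRCm38.p6, and the 48, 15, 13 and 79 peaks on other sequences (control female, control male, VEDS female, VEDS male) were left out of the motif search. Starts came from GENCODE vM21. Fragments at a summit were recovered as the whole number giving both the fold enrichment and the −log10 p (within 0.002), for 99.3% to 99.9% of peaks. No fit was made, since 2 libraries per genotype allow no test below 0.333. Genes and peaks named are the 4 members, all their promoter peaks, the 3 highest peaks away from starts per gene and list, the neighbour at the highest peak of a region, the 3 genes most like each member, and those said to be chosen after their values were seen. Steps were tested on simulated data. Python 3.11.15, numpy 2.4.6, scipy 1.17.1, pysam 0.24.0 and matplotlib 3.10.9 were used. Alternatives were the flank, the distance to a start, the threshold, the list size, the overlap rule, the motif window and the rank measure. A listed gene and a promoter sequence are not reported here.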

Additional observations from a re-analysis of the deposited data

How the results depend on the processing

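By the GENCODE starts, *Nfib* alone of the 4 main promoters had a peak. This held in both long lists with a peak required over the start and at −log10 q of at least 5. It also held with coding starts and with starts merged at 100 bp or 2 kb. It did not hold in the VEDS male list with the start of most RefSeq transcripts, where *Nfix* also had a main-promoter peak. Within 3 kb, 2 (control female) and 3 (VEDS male) main promoters had a peak, at −log10 q of at least 10 the control female number was 0, and at equal list size both were 0. Of the 18 promoters, 1 in each long list had a peak over the start itself, 9 and 13 had one within 3 kb, 1 had one in the control female list at −log10 q of at least 10, and 0 at equal list size, which leaves 504 peaks per list. The total of peaks was 29 (gene body) or 30 (flank of 10 kb) in the control female list, 24 and 47 in the long lists at −log10 q of at least 10, 2 and 2 at equal list size, 47 in the VEDS male list cut to the length of the control female list, and 1 in the control male list with a flank of 100 kb. The shared shares were 74.5% and 39.3% with reciprocal overlap of 50%, 87.2% and 85.1% with the VEDS male list cut, and 100% of control female peaks at −log10 q of at least 10. The single NFI arm was in 18.0% of VEDS male windows of 200 bp, and AP-1 in 0% of control female windows at −log10 q of at least 5 or 10. The median rank of promoter peaks was 46.4% and 45.3% of the lists, 54.4% and 62.1% by fold enrichment, and 37.5% and 30.2% by recovered fragments. Merged by genotype, leaving out each library in turn gave 0 to 47 control peaks and 0 to 89 VEDS peaks, 0 to 4 and 0 to 5 promoters, shares with a single arm of 34.0% and 30.3%, and AP-1 shares of 4.26% and 4.49%, since the control male and VEDS female libraries add no peak. The ranks of shared peaks kept all 9 *Nfia* peaks nearer the top in the control female list by fold enrichment and by fragments, and 33 and 30 of 46 peaks in all. Of 310 comparisons for single genes and other motifs, 50 moved. RefSeq starts, the masked-base filter on promoters and the cut list for counts and motifs were chosen after seeing the data. So were the removal of other genes' promoters for motifs and the comparison of shared peaks by rank, in every order. No paired analysis was possible because each pair of libraries of the same sex holds a short list with 0 NFI peaks, and peak values are not comparable between lists. Depth limits all absences: the lowest summits among NFI peaks held 6 fragments in the control female list and 8 in the VEDS male list.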

Other observations

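The highest *Nfic* peak, which matched none of the motifs listed, held the word CCAAT, read by NF-Y, 3 times on either strand within 66 bp of its printed sequence. It was 4 times in the 300-bp summit window in both long lists, where 3 or more were found in 3.79% of all control female windows and 2.57% of all VEDS male windows. This word was chosen after the sequence was seen, and its part in the height of the peak was not tested.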
